A study of Homo sapiens with 7 samples.

Results

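The BCL6 locus on human chromosome 3 was described from 6 lists of binding sites as the stretch chr3:187700000-188150000 (GRCh38), which holds BCL6 and the interval towards LPP. Every peak that overlapped this 450-kb window by at least 1 bp was taken, which gave 431 of the 323423 peaks of the 6 lists. By list these were 67 of 55361 OCA-B peaks, 90 of 73829 OCT2 peaks, 31 of 23571 OCT1 peaks, 69 of 43508 MED1 peaks, 79 of 44585 CREBBP peaks and 95 of 82569 EP300 peaks. The window edges lay in thinly filled sequence, with the outermost peak inside at 19 tags (OCT2) on the gene side and 14 tags (EP300) on the LPP side, and the nearest peaks outside at 44 tags (OCT2) and 25 tags (EP300).

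The peaks came from chromatin immunoprecipitation followed by sequencing (ChIP-seq) in OCI-Ly7, a suspension cell line from a human diffuse large B-cell lymphoma. Cells carried no labelled treatment or genetic change, and by label the 6 libraries differ in the antibody (OCT1, OCT2, OCA-B, EP300, CREBBP or MED1). Each factor had 1 library, all peaks were called against a common input library, and 12357450 (CREBBP) to 27885791 (EP300) tags remained per ChIP library after duplicate filtering. With 1 library of 1 cell line per factor there is no replicate error and no test between factors or places, so all differences below are descriptions of these libraries. A peak lay within 1 kb of a gene boundary at 7 or 8 of 8 B cell marker genes in every list, at 2 or 3 of 6 T cell markers, at 0 or 1 of 5 myeloid markers and at 0 of 4 liver markers.

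BCL6 encodes a zinc-finger transcriptional repressor that germinal-centre B cells need, and its 5′ region is a recurrent place of translocation and mutation in lymphomas of this origin. OCA-B (gene POU2AF1) is a coactivator of lymphoid cells that reaches DNA with OCT1 (POU2F1) or OCT2 (POU2F2), which read the octamer sequence. MED1 is a subunit of Mediator, which links enhancers to RNA polymerase II, and CREBBP and EP300 are paralogous acetyltransferases of enhancer chromatin. A locus control region is a group of enhancers that together set the level and cell stage of a gene's expression, and such a region has been described far upstream of BCL6 in germinal-centre B cells.

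BCL6 lies on the minus strand, from 187721377 to 187745468, so that upstream runs towards LPP, whose annotated end nearest to BCL6 lies 407.6 kb away. The RefSeq promoter table holds 2 starts for the gene, an outer start at 187745468 and an inner start 8.967 kb into the gene. Their sequences (RefSeq, GRCh38.p14; 250 bases before to 50 bases past the start, minus strand, 5′ to 3′) are shown because the promoter peaks described next lie on them. Capitals mark matches to TTCNNNGAA, a palindrome that reads the same on both strands and contains the core bound by BCL6 itself and by STAT factors.
Outer start, chr3:187745419-187745718: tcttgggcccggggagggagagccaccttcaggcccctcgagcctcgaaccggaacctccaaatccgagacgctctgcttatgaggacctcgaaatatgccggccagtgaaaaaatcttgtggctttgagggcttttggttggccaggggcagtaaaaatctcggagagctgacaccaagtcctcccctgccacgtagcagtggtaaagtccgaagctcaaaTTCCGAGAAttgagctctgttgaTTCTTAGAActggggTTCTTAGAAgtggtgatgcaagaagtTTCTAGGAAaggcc
Inner start, chr3:187736452-187736751: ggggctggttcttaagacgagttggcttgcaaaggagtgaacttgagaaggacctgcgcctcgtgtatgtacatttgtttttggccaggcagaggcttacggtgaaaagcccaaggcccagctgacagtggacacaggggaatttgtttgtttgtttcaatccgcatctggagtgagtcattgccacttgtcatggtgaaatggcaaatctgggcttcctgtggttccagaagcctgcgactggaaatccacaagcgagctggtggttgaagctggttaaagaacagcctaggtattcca

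The outer-start sequence held 4 TTCNNNGAA matches, from 187745424 to 187745496, and the inner-start sequence held none. Of 34943 human promoter sequences of this length in the same table, 7.66% held at least 1 match and 7 held 4, the most found in any promoter. The octamer ATGCAAAT, searched on both strands, was in neither BCL6 sequence and in 1.77% of all promoters. The TTCNNNGAA motif was chosen after the promoter sequence was seen, so its shares cannot test whether the BCL6 promoter is unusual. A match describes the letters of this window only.

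At the outer start the strongest peak of every list fell within 379 bp upstream of the start. The OCA-B summit lay 26 bp upstream (92 tags at the summit, its pileup), that of EP300 29 bp upstream (134 tags), that of CREBBP 61 bp (93 tags), that of MED1 74 bp (112 tags), that of OCT1 152 bp (55 tags) and that of OCT2 379 bp upstream (87 tags). The first 5 of these summits lie inside the printed sequence, and the OCT2 summit lies beyond it. In fold enrichment over the input, as the authors' peak caller wrote it, the site stood at the 87th percentile of its list for MED1 (10.9-fold), at the 75th to 77th for EP300, OCA-B, CREBBP and OCT2 (8.79-fold to 12.9-fold) and at the 69.5th for OCT1 (7.28-fold). All percentiles here are ranks within 1 list, because pileup and fold of different libraries do not rank the factors. By pileup the same peaks stood higher in their lists, at the 95.4th percentile for MED1, the 94.6th for OCA-B, the 91.8th for EP300, the 90.8th for OCT2, the 90.2nd for CREBBP and the 87.9th for OCT1. All 6 lists thus had a peak at the outer start, with a higher rank by pileup than by fold in each.

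A second, weaker site of all 6 lists lay 0.814 kb into the gene, with 25 (OCT1) to 46 (MED1) tags. Its summits were spread over 370 bp and fell into separate groups, counted as 1 site because summits within 250 bp of the next were joined. The OCT2, MED1 and CREBBP summits and the taller EP300 summit (29 tags) lay 231 to 310 bp further into the gene than the OCA-B summit. A second EP300 peak (25 tags) had its summit 0.673 kb into the gene, beside those of OCA-B (0.689 kb) and OCT1 (0.629 kb). Both promoter sites lie within the annotated span of the antisense transcript BCL6-AS1.

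From 1 to 10 kb past the start, the stretch taken to hold intron 1 because the annotation used gives no exons, 39 peaks had their summits, or 43.3 peaks per 10 kb. They lay in 8 merged regions, except 1 CREBBP peak whose region was counted with the rest of the gene, where its strongest peak lay. A merged region here is a run of peaks from any lists that overlap by at least 1 bp. CREBBP had 10 of these peaks, EP300 9, OCT2 7, OCA-B and MED1 6 each, and OCT1 1. Of the sites shared by 5 lists, the tallest lay 3.25 kb past the start, with 77 OCA-B, 101 OCT2, 107 MED1, 81 CREBBP and 108 EP300 tags and no OCT1 peak. There OCA-B had the highest rank (12.3-fold, 87.9th percentile of its list), and the 5 summits lay within 58 bp. Weaker 5-list sites without OCT1 followed at 4.23 kb (20 to 46 tags) and 6.44 kb (29 to 39 tags). OCT1 had its 1 peak of this stretch at 5.39 kb (25 tags, 3.72-fold, 12.6th percentile).

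The peak nearest the inner start that ranked high belonged to OCT2 without OCA-B. It lay 882 bp upstream of the inner start, or 8.09 kb past the outer start, at 122 tags and 25.8-fold, the 95.4th percentile of the OCT2 list. EP300 (40 tags, 6.61-fold) and CREBBP (25 tags, 7.15-fold) had summits within 34 bp of it, while OCA-B, OCT1 and MED1 had no peak there. On the inner-start sequence itself CREBBP (22 tags) and EP300 (15 tags) had summits 56 and 59 bp upstream of the start. Thus the 2 starts differed in the lists that covered them, with all 6 lists overlapping the outer-start sequence and 2 lists overlapping the inner one.

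The remaining 14.1 kb of the gene held the summits of 8 peaks, and 7 regions were counted there, 5 of them OCT2 alone at 13 to 25 tags. Past the gene end, in 21.4 kb that overlap the annotated spans of RTP2 and LOC100131635, 12 peaks formed 4 regions and the tallest was OCT2 with 66 tags. MED1 and OCT1 had no peak in either stretch.

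**Figure D1:**
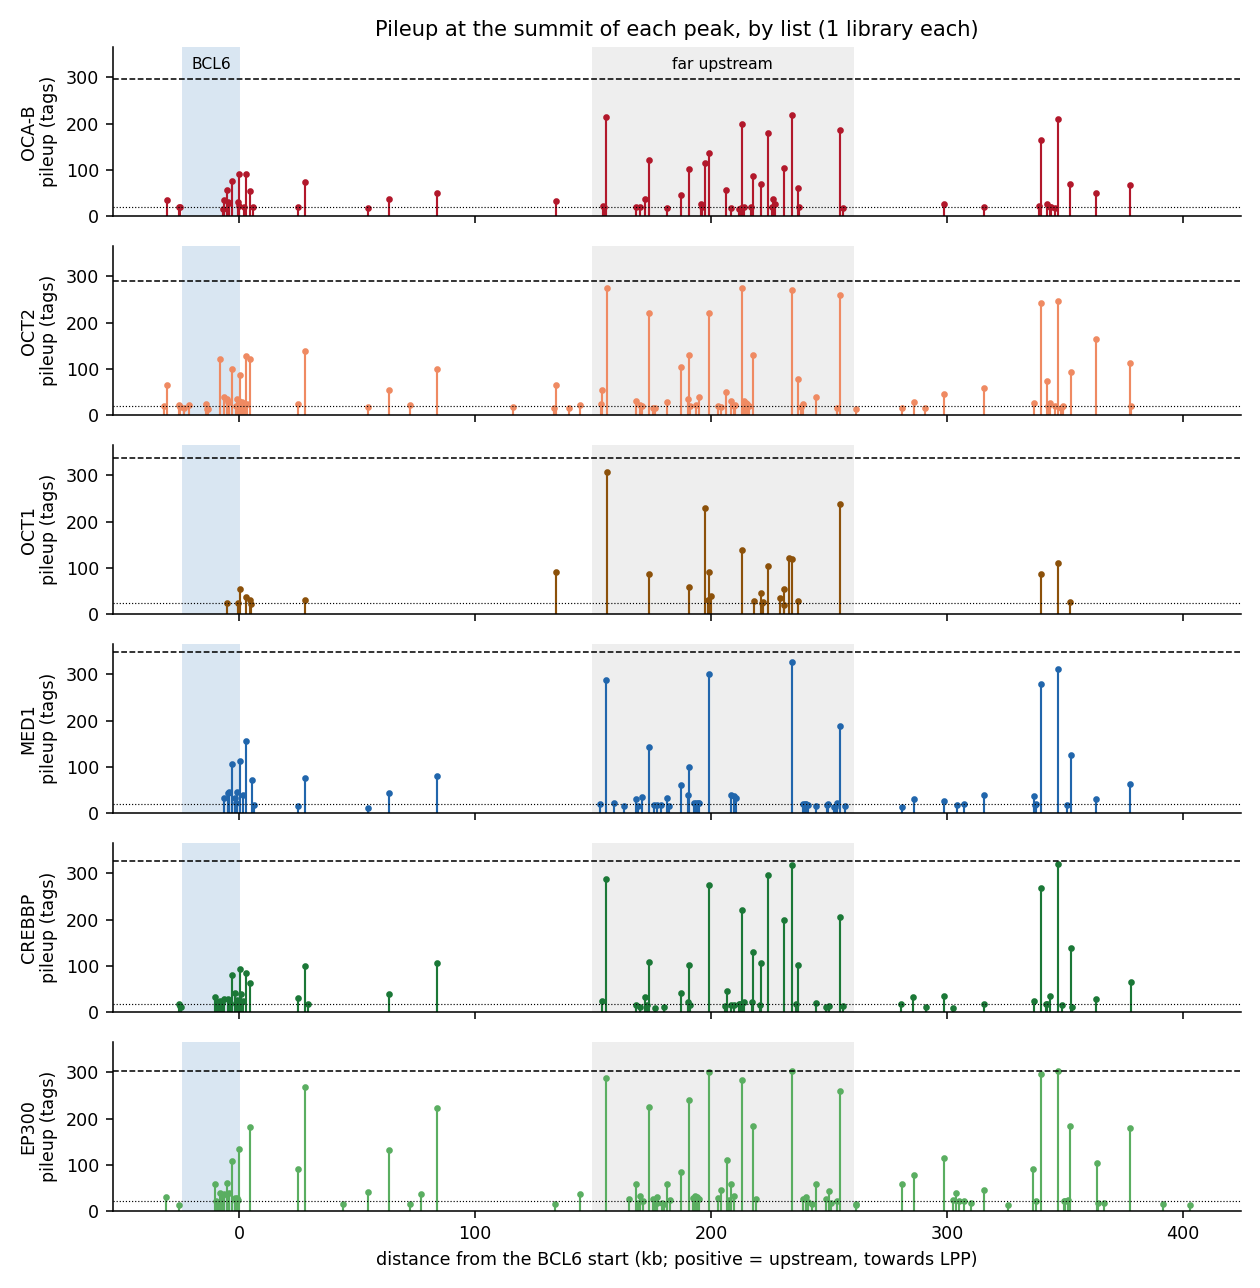
Each stem is a peak, drawn at its summit by distance from the BCL6 outer start (kb, positive upstream) with its height as the pileup (tags), in 1 panel per list with 1 library each. Blue marks BCL6, grey the far upstream control region, the dashed line the tallest pileup the counting allows and the dotted line the list median. In each list the tallest stems stand in the grey stretch or at 347.3 kb, and no stem inside the gene exceeds 122 tags.

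The proximal upstream stretch, 1 to 50 kb from the start, held 33 peaks in 4 regions and 1 annotated gene, the non-coding LOC105374263 at its outer end. The region nearest the start was spanned by 1 EP300 peak of 5055 bp, from 1.26 to 6.31 kb, over which the other lists had several peaks each. At 2.72 kb OCA-B (91 tags), OCT2 (129), OCT1 (37), MED1 (157) and CREBBP (85) had summits within 25 bp, under the wide EP300 peak. At 4.59 kb the EP300 summit itself stood (183 tags, 24.7-fold, 93.3rd percentile) with OCT2 (121 tags, 20.2-fold, 92.2nd percentile), OCA-B (55), CREBBP (63) and OCT1 (30). Among the lists with a summit, MED1 thus ranked first at 2.72 kb and EP300 at 4.59 kb, with the sites 1872.5 bp apart. These orders rank different lists, because EP300 had no summit at 2.72 kb and MED1 had none at 4.59 kb. A MED1 peak (72 tags, 83.8th percentile) covered the 4.59-kb site with its summit at 5.18 kb. The lists with summits at both sites kept the same order by rank of fold, which was OCT2, CREBBP, OCA-B and OCT1. In it CREBBP and OCA-B were nearly level (percentiles of 72.21 and 72.16 at 2.72 kb, 81.24 and 80.76 at 4.59 kb). By rank of pileup the order at both sites was OCT2, OCA-B, CREBBP and OCT1.

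A compact site of all 6 lists stood 27.9 kb upstream (chr3:187773395-187773429), with all summits within 34 bp. EP300 reached 269 tags and 33.3-fold there, the 97.2nd percentile of its list and its highest fold in the window. OCT2 had 138 tags (92.2nd percentile), CREBBP 101, MED1 76, OCA-B 73 and OCT1 30 tags (21.8th percentile). A weaker companion at 24.8 kb carried 91 EP300 tags (88.7th percentile) over 16 to 30 tags of OCA-B, OCT2, MED1 and CREBBP.

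Between 50 and 150 kb upstream the window was sparse, with 26 peaks in 100 kb (2.6 peaks per 10 kb) and no region in all 6 lists. Sites of 5 lists without OCT1 stood at 63.5 kb and 83.7 kb, both led by EP300 in rank (133 tags at the 87.7th percentile and 224 tags at the 94.6th). A site of another make-up stood at 134.2 kb, where OCT1 led with 92 tags and 20.2-fold (97.1st percentile), beside OCT2 (65 tags, 86.6th percentile) and OCA-B (32 tags, 72.1st percentile), with no MED1 or CREBBP peak. Its EP300 signal was 1 peak of 16 tags whose summit lay at 133.7 kb. OCT1 had no other peak in these 100 kb.

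The far upstream control region, 150 to 260 kb from the start, was the fullest stretch by number, with 204 of the 431 peaks of the window. These lay in 37 merged regions with a median gap of 243.5 bp, or at 92 sites, a site being a run of summits each within 250 bp of the next. It held 18.5 peaks per 10 kb, less than the intron 1 stretch and the 2-kb promoter (85.0 per 10 kb) but over 110 kb. Peaks covered 64.4% of it in the MED1 list, 63.6% in EP300, 44.9% in OCT2, 36.4% in CREBBP, 30.1% in OCA-B and 9.90% in OCT1. Of the 31 OCT1 peaks of the window, 20 lay here. By fold these peaks had a median percentile within their own list of 53.2 for OCT1, 44.7 for OCA-B, 36.4 for EP300, 25.6 for OCT2, 24.2 for MED1 and 14.3 for CREBBP. Among peaks with −log10 q of 5 or more, ranked anew within these shorter lists, the medians were higher for CREBBP (80.5), OCA-B (80.3) and OCT2 (49.4). The median for MED1 was close to the former value (24.8), and those for OCT1 (50.8) and EP300 (28.0) were lower. By pileup, over all these peaks, the median percentile was higher than by fold in every list, from 55.8 for MED1 to 88.5 for OCT1.

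The 6 sites of all 6 lists in this stretch stood at 155.7, 173.8, 190.5, 199.3, 234.3 and 254.6 kb, and 5 further sites held 5 lists. Neighbouring sites of 5 or 6 lists were a median of 8982 bp apart, with the closest pair 3297 bp and the widest pair 20305.5 bp apart. Of these 11 sites, 4 fell in annotated non-coding transcript spans (LOC124906315, LOC105374265, LINC01991 and LOC107986166) and the rest between annotated genes.

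At 155.7 kb (chr3:187901063-187901195) OCT1 had its tallest peak of the window, 308 tags and 29.1-fold, the 98.7th percentile of its list. OCT2 had 275 tags (96.7th percentile), MED1 288 (96.3rd), OCA-B 214 (96.1st), CREBBP 288 (92.5th) and EP300 287 (85.4th). The summits fell into 2 groups, with OCT1 and OCT2 56 and 90 bp upstream of OCA-B, and MED1, CREBBP and EP300 29, 29 and 42 bp on the gene side of it. EP300, which led every site of 5 or 6 lists from 4.59 to 83.7 kb, ranked last of the 6 here.

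At 173.8 kb (chr3:187919261-187919300) OCT2 led with 222 tags (93.8th percentile), with OCA-B at 121, EP300 at 225, MED1 at 144, CREBBP at 108 and OCT1 at 86 tags. The 190.5-kb site (chr3:187935999-187936021) was the tightest of this stretch, its 6 summits lying within 22 bp. EP300 had 240 tags there (90.8th percentile) and the others 58 (OCT1) to 131 (OCT2) tags.

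At 199.3 kb (chr3:187944772-187944814) CREBBP had its highest fold of the window, 49.1-fold at 276 tags (97.5th percentile), and MED1 its highest, 30.5-fold at 300 tags (98.8th percentile). EP300 reached 301 tags and OCT2 221, with OCA-B at 137 and OCT1 at 92. The CREBBP and OCA-B summits coincided to the base. Nearer to the gene, at 197.5 kb, OCT1 (230 tags, 16.3-fold, 95.4th percentile) and OCA-B (116 tags) had summits 7 bp apart and no other list had a summit. OCT2, MED1, CREBBP and EP300 covered that place with peaks of 6339 bp or more whose summits stood at 199.3 kb.

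Between 211 and 239 kb the lists differed in the way the signal was divided into peaks. MED1 was called there as 1 peak of 27498 bp, the 2nd widest of its list, from 211.0 to 238.5 kb. This peak spanned 15 OCA-B, 9 OCT2, 12 OCT1, 13 CREBBP and 4 EP300 summits. The EP300 peak of 18661 bp and the OCT2 peak of 15343 bp that overlapped it were the widest of their whole lists. Over all lists, 13 of the 431 window peaks were at least 5 kb wide and 10 of these lay in the far stretch, against 456 of all 323423 peaks (0.141%). A list that has no summit at a site in this stretch can thus still cover it.

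**Figure D2:**
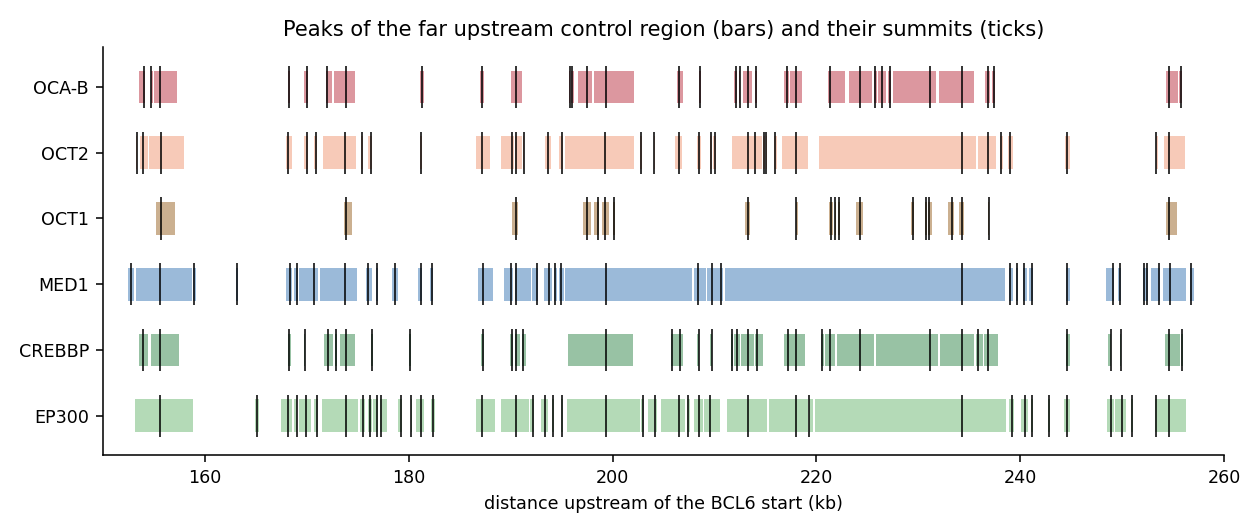
Peaks of the 6 lists (1 row each, 1 library per list) between 150 and 260 kb upstream of the BCL6 start are drawn to scale as bars, with a tick at each summit. The MED1, EP300 and OCT2 rows hold continuous bars of 27498, 18661 and 15343 bp between 211 and 239 kb, while OCA-B, OCT1 and CREBBP are divided into many peaks there.

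Inside this wide block OCA-B, OCT2, OCT1, CREBBP and EP300 shared a site at 213.3 kb, with 200, 275, 139, 221 and 284 tags. At 224.3 kb OCA-B (179 tags), OCT1 (105) and CREBBP (297 tags, 33.5-fold) had summits within 32 bp, and at 231.1 kb the same lists had 104, 55 and 199 tags within 29 bp. At 233.3 kb OCT1 had a summit alone (122 tags, 11.6-fold, 89.5th percentile). The strongest site of the block, at 234.3 kb (chr3:187979741-187979781), held 327 MED1, 318 CREBBP, 304 EP300, 271 OCT2, 219 OCA-B and 120 OCT1 tags within 40 bp. For MED1, OCA-B and CREBBP in the far stretch these were the tallest pileups, and for EP300 304 tags was the highest value the counting allows.

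That limit arose because 1 tag was kept per position, so a summit can hold at most 2 tags per base of fragment length, which gives 290 tags for OCT2, 296 for OCA-B, 304 for EP300, 328 for CREBBP, 338 for OCT1 and 348 for MED1. The tallest peak of each list reached this value (337 of 338 for OCT1). In the window EP300 had 6 of 95 peaks at 90% of the limit or more, against 1.55% of its list, and OCT2 had 3 of 90, against 0.362%. CREBBP had 3 of 79, against 0.648%, and MED1 1 of 69, against 0.26%. For OCT1 the count was 1 of 31, against 0.102%, and OCA-B had none of 67, against 0.0145%. Close to this limit the tag numbers understate differences between sites, and the folds taken from them can do so too.

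The last of the far sites, at 254.6 kb (chr3:188000029-188000104), held the second tallest OCT1 peak of the window, 239 tags beside 187 OCA-B tags. OCT1 ranked first there (24.0-fold, 98.0th percentile), followed by MED1 (97.8th), OCA-B (97.0th, its highest fold in the window at 20.9), OCT2 (95.7th), CREBBP (95.5th) and EP300 (95.2nd). All 6 lists were thus within their top 5% by fold, which was the case at no other site of the window.

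Beyond 260 kb, towards LPP, 92 peaks lay in 28 regions and 3 neighbouring sites held all 6 lists. At 340.1 kb MED1 had 279, CREBBP 268, EP300 297, OCT2 243, OCA-B 164 and OCT1 86 tags. The 347.3-kb site (chr3:188092788-188092806) held its 6 summits within 18 bp, the tightest of the window, with 320 CREBBP, 312 MED1, 304 EP300, 248 OCT2, 211 OCA-B and 111 OCT1 tags. At 352.5 kb the same lists ranged from 26 (OCT1) to 184 (EP300) tags. These 3 sites were led by MED1 in rank by fold. In rank by pileup MED1 led at 340.1 and 352.5 kb, and EP300, at the limit of its list, led at 347.3 kb. An OCT2 peak at 363.4 kb (164 tags, 90.3rd percentile) stood beside 51 OCA-B tags, and a 5-list site without OCT1 followed at 377.9 kb (180 EP300, 112 OCT2 and 63 to 67 tags of the others). Beyond 378.3 kb the window held 2 EP300 peaks, of 16 and 14 tags.

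**Figure D3:**
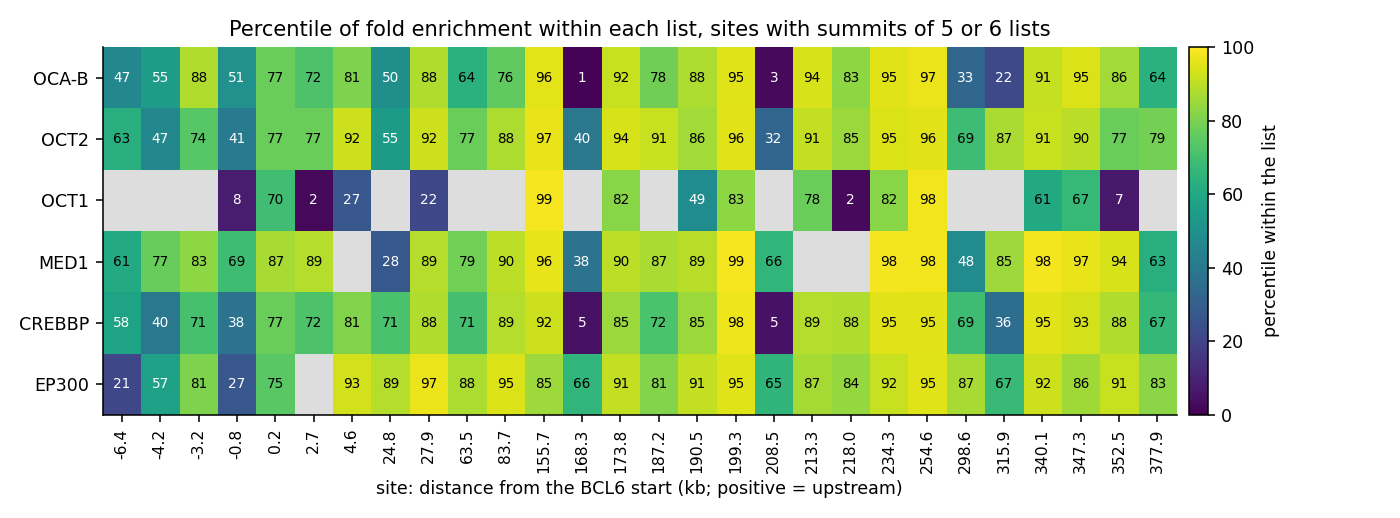
Columns are the 28 sites of the window with summits of 5 or 6 lists, by distance from the BCL6 start (kb, positive upstream), and rows are the 6 lists (1 library each). Cells give the percentile of fold enrichment within that list, and grey means no summit of that list at the site. Of the 16 sites of 5 lists, 12 lack an OCT1 summit, 3 a MED1 summit and 1 an EP300 summit. Where MED1 or EP300 lacked a summit, a wider peak of that list covered the site, which was not so for OCT1.

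Over the whole window 14 of 100 merged regions were in all 6 lists (6 of 37 in the far stretch, exact binomial 95% interval 6.19% to 32.0%), against 9.49% of all 111561 merged regions. The interval covers counting error only, and neighbouring regions are not independent. By summits, 12 of 181 sites held all 6 lists, against 6.81% of all sites. By summits the share was thus close to that of the lists as a whole, and the window differed from other places more in the number and height of its peaks.

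Set against 450-kb tiles of chromosomes 1 to 22 and X, of which the window itself is 1, as many OCA-B peaks or more were found in 24 tiles, OCT2 peaks in 10, OCT1 peaks in 18, MED1 peaks in 12, CREBBP peaks in 9 and EP300 peaks in 14. For the lists together 9 of 5698 tiles with a peak held 431 or more, and the median tile held 32. Peaks of 100 tags or more were 12 of 67 for OCA-B (4.6% of its list), 18 of 90 for OCT2 (7.76%), 8 of 31 for OCT1 (3.85%), 12 of 69 for MED1 (5.7%), 17 of 79 for CREBBP (9.19%) and 21 of 95 for EP300 (11.6%). From 3 to 5 tiles, the window included, held as many or more such peaks of OCA-B, OCT2, OCT1, MED1 or EP300, and for CREBBP the window was the only such tile. The far stretch held 10 of these 12 OCA-B peaks, 7 of the 8 OCT1 peaks and 12 of the 17 CREBBP peaks, but 6 of the 12 MED1 and 9 of the 21 EP300 peaks.

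**Figure D4:**
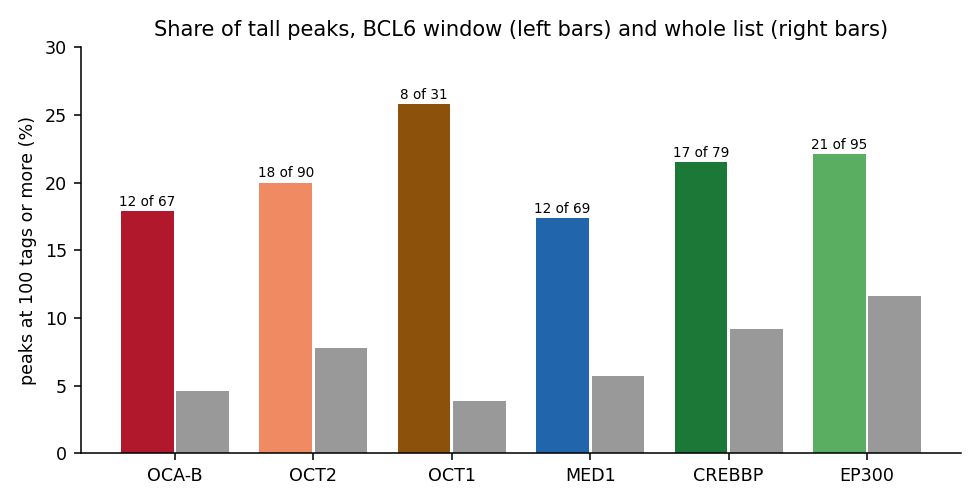
Bars give the share of peaks (%) with a pileup of 100 tags or more in the BCL6 window (left bar of each pair, with the count above it) and in the whole list (right bar, grey), for 6 lists of 1 library each. The share in the window runs from 17.4% (MED1) to 25.8% (OCT1), and that of the whole lists from 3.85% (OCT1) to 11.6% (EP300).

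Pileup and fold enrichment gave different pictures of the window. Its median pileup was above that of the whole list in every list (OCA-B 30 against 20 tags, OCT1 46 against 24, EP300 30 against 23), while its median fold was below it in every list (OCA-B 5.48 against 5.64, MED1 4.63 against 5.23, EP300 4.54 against 5.45). The pileup divided by the fold, which approximates the background the caller expected at a summit, was a median of 6.42 tags for OCA-B in the window against 3.56 in its list, and 6.91 against 4.35 for EP300. On the 1000 kb to either side of the window it was 5.56 for OCA-B and 6.22 for EP300, and on the rest of chromosome 3 it was 3.99 and 4.53. The expected background was thus higher across the wider neighbourhood and not in the window alone, and its part in the low folds, the tall pileups and the tile counts was not tested. Whether OCI-Ly7 carries extra copies of this neighbourhood was not tested either.

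In the window a list's peaks shared their places with the other lists to an unequal extent. All 31 OCT1 peaks overlapped an OCA-B peak by at least 1 bp, against 72.7% of the OCT1 list. Their summits did not all lie together. By summits joined within 250 bp, 23 sites of the window held both OCT1 and OCA-B, against 15577 sites over the lists, with 23571 OCT1 peaks. OCT2 and EP300 each overlapped 97.0% of the OCA-B peaks (78.3% and 81.7% over the whole OCA-B list). MED1 overlapped 92.5% of them (61.7%), CREBBP 91.0% (60.1%) and OCT1 35.8% (31.5%). In the other direction 46.4% of the MED1 peaks overlapped OCA-B, against 72.1% of the MED1 list, and in the far stretch this was 12 of 37. The wide MED1 peaks there overlap several OCA-B peaks each, and the small MED1 peaks between them mostly overlap none.

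Summits of different lists lay close together but kept no common order. Measured from the OCA-B summit of the same merged region, the median distance in the window was 25 bp for OCT1 (15 regions), 33.5 bp for OCT2 (34), 37.5 bp for EP300 (34), 38 bp for CREBBP (31) and 49 bp for MED1 (30). Over all regions of the lists the medians were 50 bp for OCT1, 32 bp for OCT2, 33 bp for EP300, 40 bp for CREBBP and 52 bp for MED1. The 12 sites of all 6 lists spanned a median of 58.5 bp from the first summit to the last, or 41 bp for the 6 in the far stretch, against 89 bp over all such sites. Along the DNA these 12 sites showed 11 different orders of the 6 summits. OCT2 was the summit farthest from the gene at 4 of them and EP300 the nearest at 4, and every other factor took each end at 3 or fewer.

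**Figure D5:**
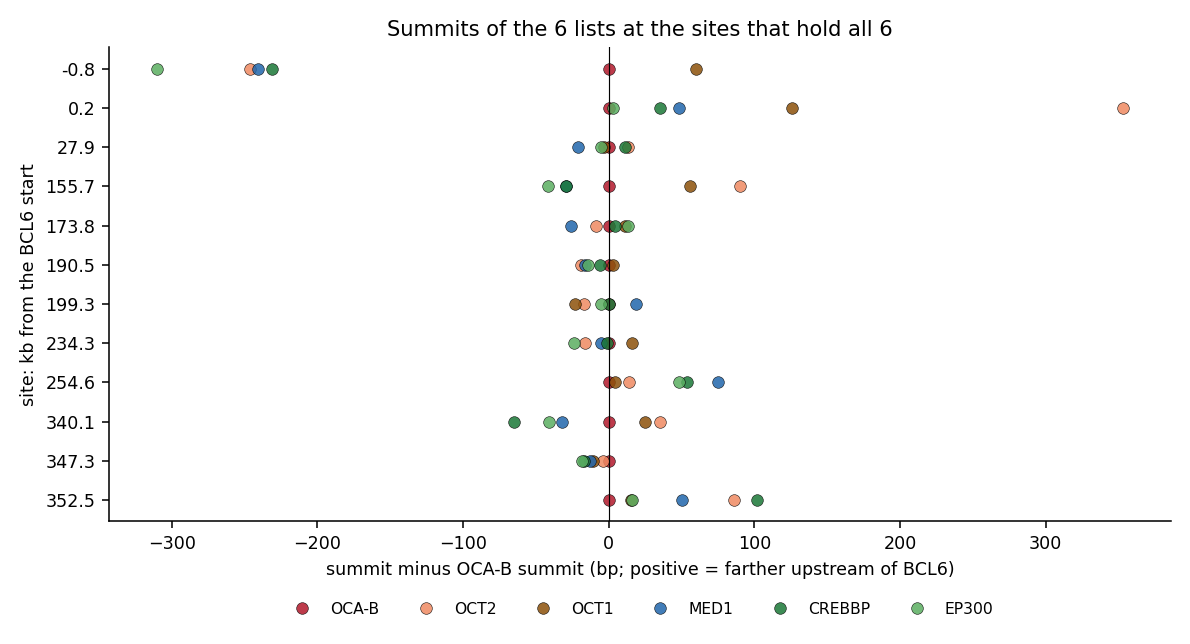
Rows are the 12 sites of the window that hold summits of all 6 lists, by distance from the BCL6 start (kb, positive upstream), and points give each list's summit minus the OCA-B summit (bp, positive farther upstream), with 1 library per list. The points, 1 per list, are spread over 370 and 353 bp in the promoter rows and over 18 to 132 bp in the others.

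The order of strength also changed from site to site, with 12 different orders by within-list rank of fold at the 12 sites. The lists run from 23571 peaks (OCT1) to 82569 (EP300), so a given percentile leaves unequal numbers of stronger peaks above it. Whether these orders hold with lists of equal length was not tested. Among the 14 merged regions of all 6 lists MED1 led 7, EP300 3, OCT1 2, OCA-B and OCT2 1 each and CREBBP none. Over all 10590 such regions EP300 led 27.3%, OCT2 26.3%, OCA-B 19.1%, MED1 14.5%, CREBBP 6.84% and OCT1 5.94%. OCT1 was last in 11 of the 14 and in 66.8% of all, and both regions it led, at 155.7 and 254.6 kb, lay in the far stretch. Ranked by pileup, MED1 and EP300 led 5 of the 14 regions each, OCT2 2, OCA-B and OCT1 1 each and CREBBP none. Over all such regions, by pileup EP300 led 40.9%, OCT2 29.7%, OCA-B 15.3%, MED1 7.52%, OCT1 4.55% and CREBBP 2.04%.

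Among protein-coding genes, BCL6 had 77 OCT2, 73 EP300, 64 CREBBP, 57 OCA-B, 55 MED1 and 28 OCT1 summits within 260 kb of the gene, where the median gene had 20, 23, 12, 17, 11 and 7 in the same order of lists. The genes with the most similar 6 counts (Euclidean distance on log2 of count plus 1, over 6 lists) were SLC16A6, TRIM38, FGD3, SPRED2 and GSPT1, at distances of 0.34 to 0.37, where the median gene stood at 4.84. With a reach of 100 kb in place of 260 kb, 0 of these 5 genes were among the 5 most similar. SLC16A6, the nearest, had 74 OCT2, 74 EP300, 54 CREBBP, 58 OCA-B, 65 MED1 and 28 OCT1 summits. As many summits as BCL6 or more were found at 265 genes for CREBBP, the fewest of the 6 lists, and at 1167 genes for OCA-B, the most.

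BCL6 represses its targets with corepressors, and a set of B cell factors is known to act on BCL6. Of 14 genes of corepressors and partners, 12 had a region in all 6 lists within 100 kb, and of 17 genes of regulators 16 did, against 64.5% of 19974 protein-coding genes. BCL6 itself had 5 such regions within 100 kb, the far control region lying outside this reach. As many or more were found at 2435 protein-coding genes, where the median was 1 and the most was 20. Among the partners and regulators the most were found at PAX5 (12), which encodes a B cell identity factor, and BACH2 (11), a repressor of plasma cell fate. Next were HDAC7 (10), a class IIa histone deacetylase, and IRF4 (9), an interferon regulatory factor of late germinal-centre and plasma cells. NCOR1 and CTBP1, both corepressor genes, and STAT5A had none.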

How the data were processed

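ChIP-seq peaks of 6 factors in OCI-Ly7 cells, called against 1 input, were used as deposited. MACS2 2.1.1.20160309, SAMtools 1.3.1, Bowtie2 2.3.2.2 and CASAVA 1.8.2 are listed in the submitters' processing notes, with hg38 as the build. Per the file headers each list was called on its own, with a q threshold of 0.05 and 1 tag kept per position. Each peak carries the deposited pileup signal (whole tags at the summit), the deposited fold enrichment over input, and −log10 p-values and −log10 q-values as the authors' caller wrote them.

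Chromosomes 1 to 22 and X were used, with 1-based positions. Gene spans and promoter sequences were from RefSeq, GRCh38.p14. The window was split by distance from the outer BCL6 start: within 1 kb the promoter, to 10 kb past the start the stretch taken to hold intron 1, and upstream limits at 50, 150 and 260 kb. Where a region held several peaks of a list, the one with the highest fold was used. The genes named were BCL6, the genes overlapping the window, the 5 genes with the most similar counts, and, from the lists of partners and regulators, the 4 with the most regions in all 6 lists and all with none. The members, parts and lists were chosen with earlier results of these data known, and the TTCNNNGAA motif was chosen after the promoter sequence was seen. Overlap, offset and interval code was tested on simulated data. Python 3.11.15, numpy 2.4.6, pandas 2.3.3, scipy 1.17.1 and matplotlib 3.10.9 were used. Sequence under the upstream peaks was not analysed here. Alternatives tried were −log10 q of 5 or more, summits joined within 250 bp, lists shortened to the shortest, ranks by pileup, nearest instead of strongest peaks, and a reach of 100 kb for similar genes.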

Additional observations from a re-analysis of the deposited data

How the results depend on the processing

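With peaks of −log10 q of 5 or more, the 28 counts, ranks and distances recomputed stayed within 1.5 times the reported count or within the exact 95% interval of the reported median. Those intervals are wide. The median percentile of fold in the far stretch, ranked anew within the stricter lists, was 80.3 for OCA-B and 80.5 for CREBBP, in place of 44.7 and 14.3. When summits within 250 bp were joined in place of overlapping peaks, the window held 181 sites in place of 100 regions, and the number in all 6 lists became 0 in the intron 1 stretch and 1 in the proximal stretch. With every list shortened to the length of the OCT1 list it became 0 in the intron 1 stretch and 1 at the promoter, and the count in the far stretch was again 6. Ranked by pileup in place of fold, the median percentile of the far stretch became 88.5 for OCT1, 55.8 for MED1 and 62.6 for EP300, and the regions led became 2 for OCT2, 1 for OCT1 and 5 for EP300. A reach of 100 kb in place of 260 kb gave 5 similar genes, of which 0 were shared with those named. Joining summits for the distances, added after the data were seen, moved none of the 5 medians beyond its interval. The cause of these changes was not tested. No paired analysis was possible because each factor had 1 library. Depth, duplicate filtering and antibody differ between lists, and pileups near the limit set by 1 tag per position cannot separate strong sites.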
